A study of Rattus norvegicus with 20 samples.

Results

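The mir-23, mir-27 and mir-24 genes lie in the rat genome as a pair of paralogous clusters, and their levels were compared between the clusters over 15 tissues and serum. Cluster a holds mir-23a, mir-27a and mir-24-2, and cluster b holds mir-23b, mir-27b and mir-24-1. The members (rno-mir-23a, rno-mir-27a, rno-mir-24-2, rno-mir-23b, rno-mir-27b and rno-mir-24-1) were chosen by name and not by a rule on their levels, although earlier results of these data were known. They are 6 of 444 rows in the list of miRBase 21 precursors. A filter of 10 or more counts in 3 or more of the 20 libraries left 295 precursors, and all 6 passed it. The list of miRBase 21 mature forms, which holds 577 rows, gave 10 arms of these precursors. Small RNA was sequenced from male Long Evans rats that had received no treatment, at postnatal day 35, to set the serum level of a miRNA beside its level in the tissues. An entire brain hemisphere and serum were each profiled in 3 single libraries. The other 14 tissues (fat, heart, kidney, large intestine, liver, lung, muscle, pancreas, skin, small intestine, spleen, stomach, testes and thymus) were each profiled as 1 library pooled from 3 rats. A pool has no replicate, so the intervals given for it (95%, Wilson) cover counting error only.

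The members of each cluster are transcribed together as one primary transcript, which is cut into hairpins and then into mature arms, named 5p and 3p after the side of the hairpin they come from. The mature arms guide Argonaute proteins to target mRNAs, mainly through pairing of the seed, the bases from position 2 to 8. These clusters are known from work on blood vessel growth, muscle mass, fat cell differentiation and T cells, and miR-23a-3p serves as the stable partner of miR-451 in a common test for hemolysis of serum.

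The mature arms are shown because the comparison of the clusters rests on how well they can be told apart. They were matched by gene symbol to RefSeq (GRCr8), with seeds in capitals and positions counted from 1 at the 5′ end.
miR-23a-3p (cluster a): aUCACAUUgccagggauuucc
miR-23b-3p (cluster b): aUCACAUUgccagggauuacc
miR-27a-3p (cluster a): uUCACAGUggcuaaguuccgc
miR-27b-3p (cluster b): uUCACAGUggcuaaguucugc
miR-24-3p (both clusters): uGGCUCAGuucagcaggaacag
miR-24-2-5p (cluster a): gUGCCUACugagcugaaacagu
miR-24-1-5p (cluster b): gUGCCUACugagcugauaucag
miR-27a-5p (cluster a): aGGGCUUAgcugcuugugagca
miR-27b-5p (cluster b): aGAGCUUAgcugauuggugaacag

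The miR-23 arms share a seed and differ at 1 base of 21 (U19A, from 23a to 23b), and the miR-27-3p arms likewise share a seed and differ at 1 base of 21 (C19U, from 27a to 27b). In both pairs the leading 18 bases are identical, so that a read must reach position 19 to tell the paralogs apart. miR-24-3p is the same molecule from either cluster, whereas the 5p arms of mir-24 share a seed but differ at 5 bases of 22 (A17U, C19U, A20C, G21A and U22G, from 24-2 to 24-1). The 5p arms of mir-27 differ in their seeds. The sequence of miR-23a-5p was not found in the table, and miR-23b-5p was not analysed here. The shared arm is given in capitals in both mir-24 hairpins.
mir-24-2 hairpin (cluster a): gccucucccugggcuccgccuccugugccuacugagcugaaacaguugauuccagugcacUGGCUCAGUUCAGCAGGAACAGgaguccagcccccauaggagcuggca
mir-24-1 hairpin (cluster b): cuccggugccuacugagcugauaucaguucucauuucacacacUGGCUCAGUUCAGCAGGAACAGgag

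In GRCr8, cluster a spans 389 bases of the minus strand of chromosome 19, between the protein-coding genes Zswim4 and Nanos3. Cluster b spans 814 bases of the minus strand of chromosome 17, within the span of Aopep, an aminopeptidase gene. mir-3074 lies on the opposite strand over all 68 bases of mir-24-1. Whether the counting used strand is not given in the sources used here. In 5 libraries mir-24-1 had fractional counts, and mir-3074 had fractional counts in the same libraries (41.6 and 2.39 in small intestine). Reads thus appear to have been divided between these genes on opposite strands. They cannot be told apart with certainty, although mir-3074 was given at most 9.55 counts in any library.

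Total precursor counts ranged from 388275 to 1204552 in the hemispheres, from 162080 (testes) to 3685761 (large intestine) in the pools, and from 7556 to 10862 in serum. In serum 3 counts equal 276 to 397 reads per 1000000 counts on the precursor list (RPM), so a value near or below that level rests on 3 counts or fewer. The neuronal markers mir-124 and mir-9a summed to 25041 to 31215 RPM in the hemispheres and to at most 99.7 RPM in any pool. The library labelled pancreas went against its label. It had no mir-216a or mir-217 count and 1 mir-216b count, its mir-122 level of 14862 RPM was close to that of liver (14726 RPM), whereas no other pool exceeded 8.17 RPM, and over 295 precursors it correlated best with liver (r = 0.97). The main results that could rest on it are therefore also given without it.

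mir-27b was by far the most abundant member. Its median over the 15 tissues was 33336 RPM, which ranked 4 of 295 precursors, whereas the other 5 members ranked between 73 and 98. It supplied from 89.7% (spleen) to 97.1% (the library labelled pancreas) of the counts of the 6 members in the pools, 94.1% ± 0.70 (SD, n = 3) in brain and 61.6% ± 1.60 (SD, n = 3) in serum. The serum libraries thus lay below every tissue in this share. mir-27b was highest in skin (114459 RPM), followed by heart (67231 RPM), lung (50748 RPM) and muscle (41969 RPM), each beyond the counting interval of the next. Kidney, the library labelled pancreas, brain, stomach and liver followed between 36165 and 32340.0 RPM, and neighbours within this run had overlapping intervals. It was lowest in thymus (18536 RPM), spleen (15749 RPM) and testes (10180.2 RPM). Across hemispheres 1, 2 and 3 it stood at 36065, 35941 and 32874 RPM.

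mir-27a, the paralog from cluster a, followed a like order at a much lower level. The 3p arms of this pair differ at 1 base, and whether misassigned mir-27b reads added to the mir-27a counts was not tested. It was highest in skin (1753 RPM), heart (1274 RPM) and lung (1001 RPM), and then fat, stomach and muscle lay between 776 and 665 RPM. Kidney stood at 394 RPM and liver at 329 RPM. From kidney down to testes (191 RPM) every neighbour in the order overlapped the next, and brain, with 291, 308 and 239.5 RPM in hemispheres 1, 2 and 3, stood at rank 13 of 15.

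mir-23a was highest in skin (924 RPM), lung (896 RPM) and heart (865 RPM), 3 tissues whose intervals overlapped. Fat (607 RPM), muscle (579.5 RPM) and spleen (459 RPM) came next. The lower part of the order ran without a break from stomach (306 RPM) through brain (rank 9) and liver (149 RPM) to thymus (75.9 RPM), each overlapping the next. The hemispheres stood at 219, 266 and 317 RPM.

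mir-23b was highest in lung (979 RPM) and skin (899 RPM), whose intervals overlapped. Brain took rank 3, with 629, 822 and 744 RPM in hemispheres 1, 2 and 3, and overlapped heart (675 RPM). Liver stood at 509 RPM, fat at 294 RPM and stomach at 222 RPM, and thymus was lowest at 85.0 RPM, apart from testes (209.8 RPM) beyond the counting intervals. Thymus was thus the lowest tissue for both mir-23 genes.

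Both mir-24 precursors were highest in skin, mir-24-2 at 1152 RPM and mir-24-1 at 740.4 RPM. Brain ranked 4 for both, at 525 ± 64.2 RPM (SD, n = 3) for mir-24-2 and 384 ± 38.7 RPM (SD, n = 3) for mir-24-1. The lowest values were 129.6 RPM for mir-24-2 in testes and 88.8 RPM for mir-24-1 in small intestine, and from large intestine (293 and 157 RPM) downwards the neighbours of both orders overlapped. Because miR-24-3p is one sequence, the division of these counts between the copies is uncertain.

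**Figure D1:**
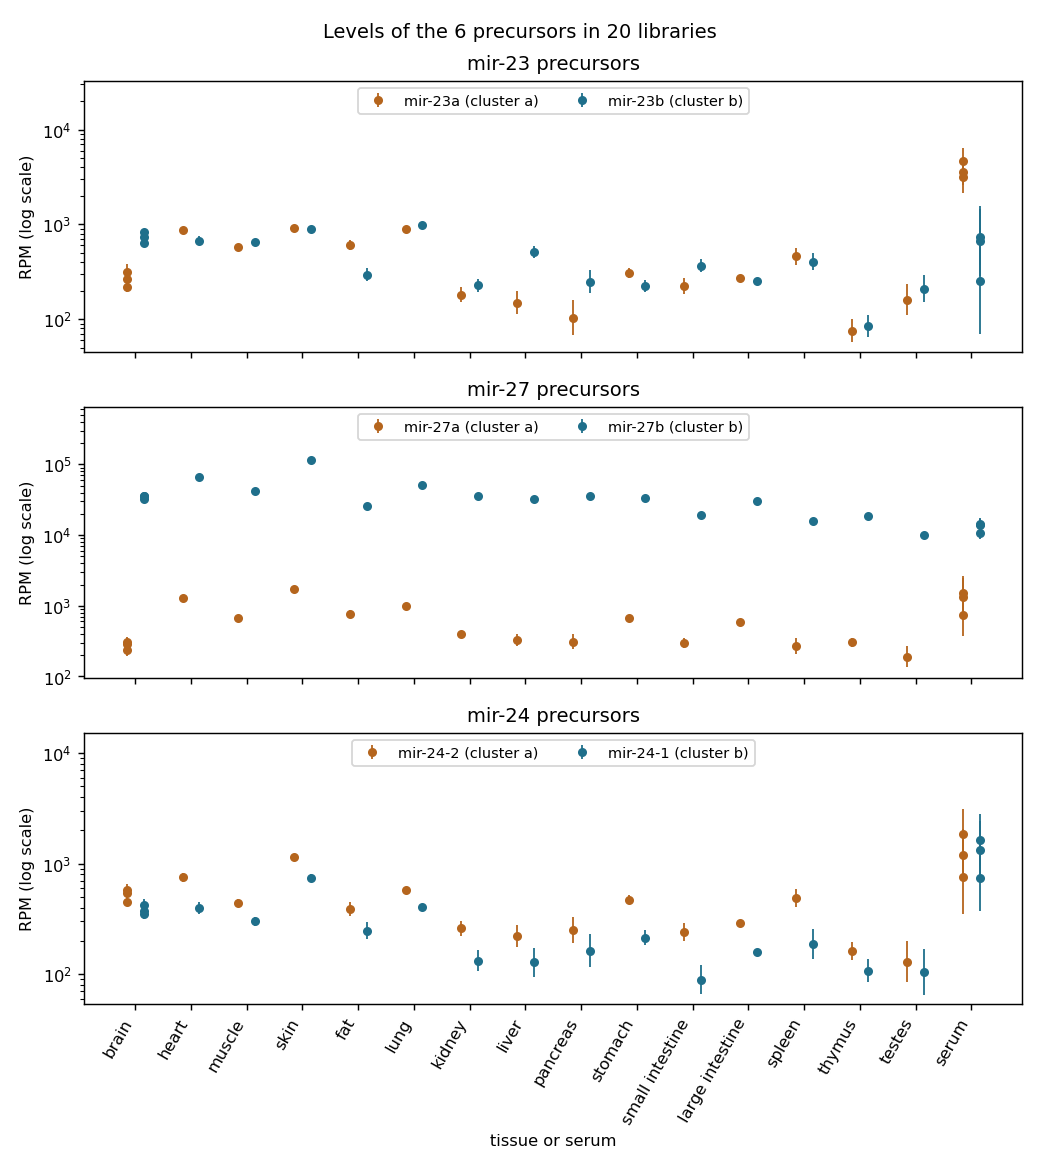
RPM of the 6 precursors on a log scale, by tissue or serum, with 1 panel for each pair of paralogs and 1 point for each of the 20 libraries (3 for brain, 3 for serum, 1 for each pool). Bars are 95% Wilson intervals for counting error. mir-27b runs from 10180.2 RPM in testes to 114459 RPM in skin, far above mir-27a, while the mir-23 and mir-24 pairs lie close together except for mir-23 in serum.

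All 6 members varied less between tissues than most precursors. The SD of log2(RPM + 1) over the 15 tissues was 1.15 for mir-23a, 0.94 for mir-27a, 0.85 for mir-24-2, 0.97 for mir-23b, 0.86 for mir-27b and 0.88 for mir-24-1, against a median of 1.69 over the 295 precursors. Between 6.44% (mir-24-2) and 21.0% (mir-23a) of the precursors had a smaller SD. The highest tissue exceeded the lowest by 8.34-fold (mir-24-1) to 12.2-fold (mir-23a). As a description of 15 tissues from shared rats, log2 levels correlated at r of 0.80 between mir-23a and mir-27a and 0.64 between mir-23b and mir-27b. Across the clusters the correlation was 0.76 between mir-23a and mir-23b and 0.84 between mir-27a and mir-27b. The median r was 0.80 over the 6 pairs within a cluster and 0.78 over the 9 pairs between clusters. Many pairs in both sets include a mir-24 copy, and these copies share most of their counts (r = 0.93 between them). The medians therefore cannot show whether levels moved together more within a cluster than between clusters.

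The order of tissues depended in part on how libraries were scaled, since a few precursors took large shares of some pools (mir-143 alone held 61.2% of the stomach counts). Skin was the highest tissue for 5 of 6 members by totals, for 5 by TMM factors (heart for mir-23a) and for 3 by DESeq2 size factors. Against the median over tissues, brain stood at −0.03 (mir-23a), −0.49 (mir-27a), 0.43 (mir-24-2), 0.99 (mir-23b), 0.07 (mir-27b) and 1.03 (mir-24-1) in log2(RPM + 1). The median of all 295 precursors in brain was 1.72 on this scale, so all 6 members lay below it, while the signs above 0 turned negative with TMM or DESeq2 factors. In these bulk samples, fewer cells that make a miRNA and less miRNA per cell cannot be told apart.

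Within a library the clusters can be compared without any scaling between libraries, and the mir-27 and mir-23 pairs gave different answers. mir-27b counts exceeded mir-27a counts in all 15 tissues, with a mean log2 ratio of 6.01 (SD 0.52 between tissues; exact two-sided sign-flip permutation test over tissues, p = 6.1e-05, the smallest possible, adjusted p = 8.5e-05 over 7 pairs). mir-24-1 counts lay below mir-24-2 counts in 15 of 15 tissues, with a mean log2 ratio of −0.79 (SD 0.33; exact permutation adjusted p = 8.5e-05). Most counts of both copies were the shared miR-24-3p, so this test depends on how those reads were placed. It therefore does not compare the output of the clusters. mir-23b exceeded mir-23a in 9 of 15 tissues, and the mean log2 ratio of 0.28 (SD 0.75) did not differ from 0 beyond the spread between tissues (exact permutation adjusted p = 0.18). Since the pools come from the same rats, these tests cover the spread between tissues only.

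For mir-23 the direction changed with the list used. On the mature list, miR-23b-3p exceeded miR-23a-3p in 3 of 15 tissues, and the mean log2 ratio was −0.58 (SD 0.67; exact permutation adjusted p = 0.0067). The mature rows covered unequal parts of the precursor counts, since miR-23b-3p held 39.2% ± 3.52 (SD, n = 3) of the mir-23b counts in brain and 25% to 57.1% in the pools, whereas the listed arms of mir-23a held 76.2% ± 2.07 (SD, n = 3) in brain and 65.4% to 78.8% in the pools. The 5p arm of mir-23b, not analysed here, has no part in the first of these shares, and miR-23a-5p received 1 count in all 20 libraries, in large intestine. For mir-27 the lists gave the same direction, with a mean log2 ratio of 6.19 (SD 0.56) for the 3p arms, positive in 15 of 15 tissues. Without the library labelled pancreas the means were 0.21 for the mir-23 precursors (adjusted p = 0.31), −0.65 for the miR-23-3p arms (adjusted p = 0.0037) and 5.95 for the mir-27 precursors (adjusted p = 0.00017).

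The balance of mir-23b and mir-23a differed widely between tissues. mir-23b held 77.3% of the mir-23 counts in liver (167 of 216 counts, interval 71.3 to 82.4%), 74.2%, 75.5% and 70.1% in the hemispheres and 70.4% in the library labelled pancreas (50 of 71 counts, 59.0 to 79.8%). Small intestine followed at 62.3%. Lung, thymus, muscle, kidney and testes lay between 52.2 and 56.7%, and skin, large intestine and spleen between 46.7 and 49.3%. Heart stood at 43.9% (40.6 to 47.1%), stomach at 42.0% and fat lowest at 32.7% (144 of 441 counts, 28.4 to 37.2%). Liver alone exceeded every hemisphere, 12 pools lay below every hemisphere, and the interval of fat lay below those of all other tissues. For the 3p arms brain was the highest tissue, at 58.5% ± 1.48 (SD, n = 3), followed by the library labelled pancreas at 56.3% (18 of 32 counts) and liver at 56.1%, and fat was again the lowest at 22.1%.

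mir-27b held nearly all mir-27 counts, and on the precursor list its share was highest in brain and lowest in fat. It stood at 99.2% ± 0.0641 (SD, n = 3) in the hemispheres, and all 14 pools lay below every hemisphere. Counting intervals did not separate them all. That of hemisphere 2 (99.15%, 99.01 to 99.27%) overlapped those of the library labelled pancreas (99.14%, 98.90 to 99.33%), liver (98.78 to 99.16%) and kidney (98.78 to 99.05%). For the 3p arms fat was again lowest, but the order at the top changed, with the library labelled pancreas at 99.33%, above the hemispheres (99.205%, 99.175% and 99.311%), and liver at 99.209%, above hemispheres 1 and 2. The ratio of mir-27b to mir-27a was 126 ± 10.5 (SD, n = 3) in brain and ran from 32.8 in fat to 116 in the library labelled pancreas among the pools. On the precursor list the nearest pools were the library labelled pancreas, with a mir-27b share of 99.1%, and liver, with 99.0%.

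Tissues with more mir-23b relative to mir-23a were thus those with more mir-27b relative to mir-27a. Over the 15 tissues the log2 ratios of the pairs correlated at a Pearson r of 0.88 (Spearman rho 0.80), and at 0.84 without liver and brain, the tissues farthest from the median. Over the 14 pools alone r was 0.85, and over 13 pools without pancreas it was 0.82. For the 3p arms r was 0.78 (rho 0.50), and 0.65 without brain and pancreas. The mir-24 ratio did not follow, with an r of 0.19 to the mir-23 ratio and 0.12 to the mir-27 ratio. These correlations describe libraries from the same 3 rats, and the members of a pair share a library, a seed and most of their bases.

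**Figure D2:**
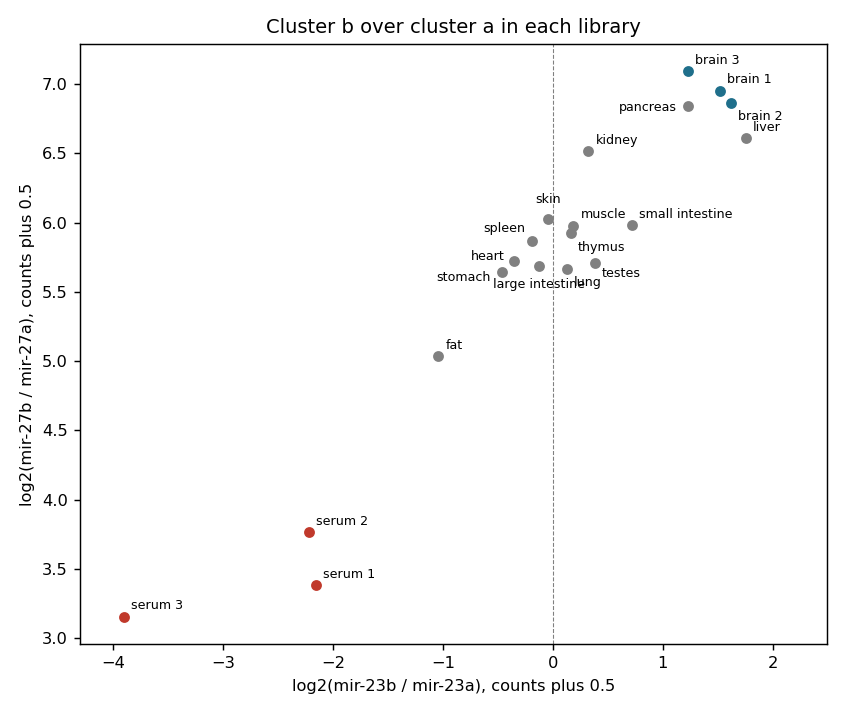
log2 ratio of mir-27b to mir-27a counts against that of mir-23b to mir-23a counts (0.5 added to each count), with 1 point for each of the 20 libraries. The hemispheres, liver and the library labelled pancreas lie at the upper right, fat lies below the other tissues, and the 3 serum libraries lie at the lower left.

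Within a cluster the members were not present in a fixed ratio. mir-27b exceeded mir-23b 48.4 ± 7.72-fold (SD, n = 3) in brain, 39.1-fold in spleen and 218-fold in thymus. mir-27a stood at 1.08 ± 0.29 times mir-23a (SD, n = 3) in brain, at 0.58 times in spleen and at 4 times in thymus. Spleen and thymus, both lymphoid organs, were the pools at the lower and upper end for both ratios.

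The 2 copies of mir-24 could be separated only by their 5p arms. Over all 20 libraries miR-24-2-5p received 2423 counts, miR-24-1-5p received 3.33, and the shared miR-24-3p received 7378. miR-24-1-5p had at most 1.33 counts in any library, and no ratio is given against it. With its own 5p counts taken off each precursor, mir-24-1 held 49.5% ± 3.20 (SD, n = 3) of what remained in brain, and 12 of 14 pools lay between 45 and 55% (range 41.0% in small intestine to 65.4% in testes). Of the precursor counts as deposited mir-24-1 held 42.3% ± 2.45 (SD, n = 3) in brain and 27.1 to 44.7% in the pools. The lower mir-24-1 level on the precursor list was thus carried by the miR-24-2-5p reads, and the remainder was split nearly evenly. The shared arm does not show from which cluster it came.

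miR-24-2-5p took a smaller share of the mir-24 arms in brain than in any pool. It made up 17.4%, 14.4% and 14.7% of miR-24-2-5p plus miR-24-3p in hemispheres 1, 2 and 3, against 22.3% in lung, a pool median of 28.6% and 49.6% in spleen (66 of 133 counts, 41.3 to 58.0%). All 14 pools lay above every hemisphere. In serum it was 4 of 61 counts, or 6.56% (2.58 to 15.7%).

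**Figure D3:**
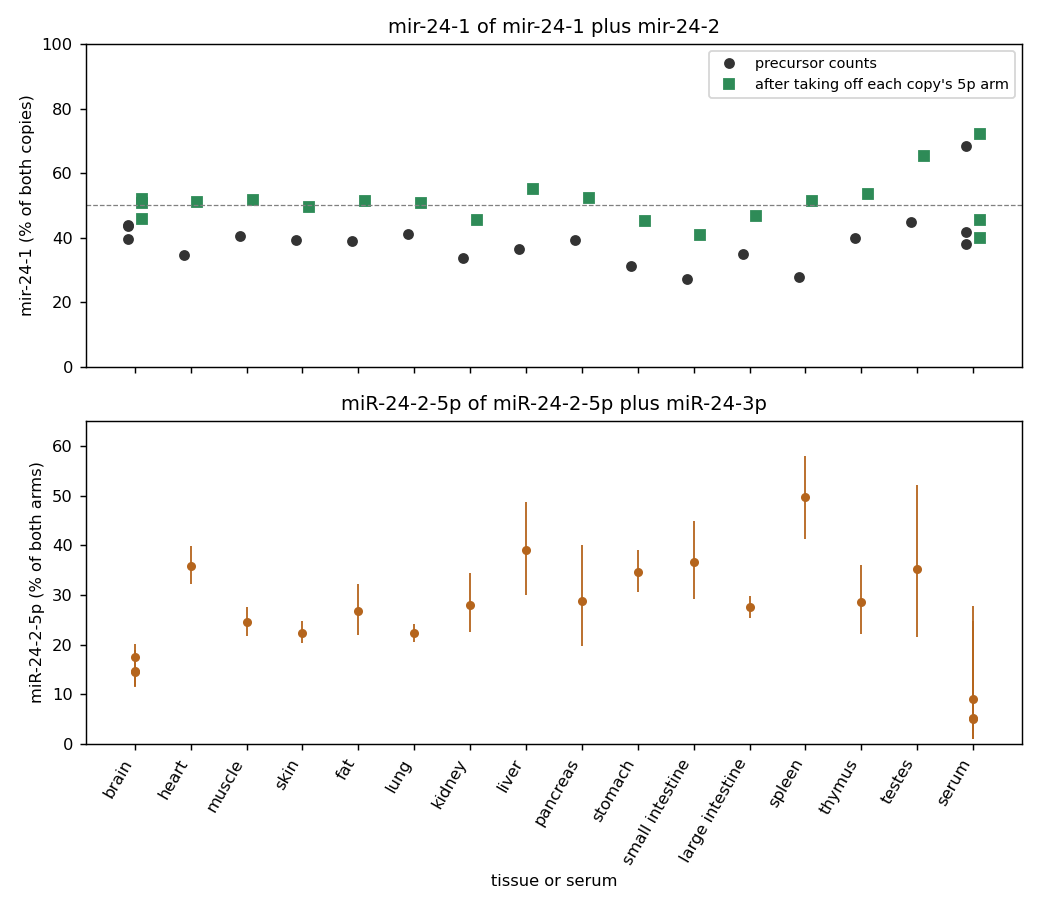
Upper panel, mir-24-1 as a percentage of both mir-24 copies, from the precursor counts (circles) and after the 5p arm of each copy was taken off (squares), by tissue or serum with 1 point per library; the dashed line marks 50%. Lower panel, miR-24-2-5p as a percentage of miR-24-2-5p plus miR-24-3p, with 95% Wilson intervals for counting error; the hemispheres lie at 14.4 to 17.4%, below all 14 pools.

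The 5p arm of mir-27a was not detected in brain. It received 0 of 555 arm counts in the 3 hemispheres, which allows a share of up to 0.541%, and 225 counts (2.91%) summed over the pools. Its share was 1.79% in heart (11 of 616 counts), 3.61% in large intestine (66 of 1827), 4.36% in skin (49 of 1124) and 10.9% in spleen (5 of 46, 4.73 to 23.04%). It was also at 0 in liver (0 of 71, up to 4.23%) and in the library labelled pancreas (0 of 42, up to 7.14%), where the depth allows the share seen in the other pools. The mean level of 21.6 RPM in the pools was at least 13.2-fold higher than the level that 3 counts over the 3 hemispheres would give. By contrast miR-27b-5p was present in every hemisphere, at 91.2, 101 and 101 RPM, and made up 0.259% ± 0.0240 (SD, n = 3) of the mir-27b arms there, within the range of the pools (0.0709% in thymus to 0.732% in testes).

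To ask which miRNAs differed between brain and the other tissues, the hemispheres were compared with the 14 pools as 1 group, across all precursors. The hemispheres are 1 tissue entered as 3 libraries, so these p-values can be too small. Of the 6 precursors 1 was called, mir-27a, which was lower in brain (log2 fold change −2.34 ± 0.74 SE; edgeR quasi-likelihood test, Benjamini-Hochberg adjusted p = 0.020), and 18.6% of the 295 precursors tested were called lower in brain (42.7% in either direction). mir-23a stood at −1.71 ± 0.72 SE (adjusted p = 0.061), mir-27b at −1.30 ± 0.65 SE (adjusted p = 0.10), mir-24-2 at −0.83 (adjusted p = 0.25), mir-24-1 at −0.44 (adjusted p = 0.52) and mir-23b at −0.35 (adjusted p = 0.62). The median was −1.07 over the members, against 0.17 over all precursors tested, −1.71 in cluster a and −0.44 in cluster b. The mir-27a call was lost when library totals replaced TMM (−1.17, adjusted p = 0.15) and when any 1 hemisphere was left out (log2 fold change between −2.50 and −2.31, adjusted p between 0.076 and 0.087), and mir-24-2, mir-23b and mir-24-1 turned positive with library totals. Without the library labelled pancreas mir-23a passed as well (−1.85, adjusted p = 0.043), as it did without liver, testes or thymus.

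On the mature list 8 of the 10 arms passed the filter on low counts. 1 of them, miR-27a-5p, is at 0 in all hemispheres and passed through the pools alone, so its edgeR call (adjusted p = 0.0013) adds nothing to the shares given above. Of the other 7 arms, 3 were called lower in brain, where 24.1% of the 290 arms tested were lower (44.1% in either direction). They were miR-23a-3p (log2 fold change −1.88 ± 0.72 SE, edgeR adjusted p = 0.041), miR-27a-3p (−2.44 ± 0.75 SE, adjusted p = 0.015) and miR-24-2-5p (−1.84 ± 0.61 SE, adjusted p = 0.022), which all come from cluster a. Of the arms of cluster b and the shared arm, miR-27b-3p stood at −1.51 ± 0.63 SE (adjusted p = 0.060), miR-27b-5p at −1.16 (adjusted p = 0.13), miR-24-3p at −0.59 (adjusted p = 0.40) and miR-23b-3p at −0.57 (adjusted p = 0.36). The difference between the clusters was not itself tested, and arms of cluster b passed under some alternatives, miR-27b-3p with DESeq2 size factors (adjusted p = 0.035), with the DESeq2 test (adjusted p = 0.0036) and without the spleen or the thymus pool, and miR-27b-5p with the DESeq2 test (adjusted p = 0.012). The 3 calls were lost with library totals and without any 1 hemisphere. miR-23a-3p held its call in only 8 of 22 alternatives, and was also lost without the fat, heart, large intestine, lung, muscle, skin, stomach or testes pool (adjusted p between 0.051 and 0.13) and under either other count filter, and miR-24-2-5p was also lost without muscle (adjusted p = 0.077), without skin (adjusted p = 0.052) and without a filter (adjusted p = 0.058). Mesenchymal markers (mir-199a and mir-214, both listed) summed to 103 to 188 RPM in the hemispheres and to 525 to 7756 RPM in the pools, and endothelial markers (mir-126a, mir-221 and mir-222, 3 of 3 listed) to 6336 to 8786 RPM in the hemispheres and to 2850 to 42642 RPM in the pools. Their part in these differences was not tested.

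In serum the balance of mir-23 lay further toward cluster a than in any tissue, and opposite to that in brain. mir-23a stood at 3176, 3590.5 and 4666 RPM in serum libraries 1, 2 and 3 (24, 39 and 37 counts), against 219, 266 and 317 RPM in the hemispheres. Every serum library lay above every hemisphere and above all 14 pools, and the mean was 14.2-fold that of brain. Of the 235 precursors tested between these groups, 20.9% had every serum library above every hemisphere. This percentage depends on the precursors tested, since counts in the hemispheres alone could pass the filter. With 10 counts required in every library, 51 precursors were tested. Of these, 20 were called lower in brain by edgeR, with mir-23a among them, and 26 higher. mir-23b, in contrast, stood at 662, 737 and 252 RPM in serum (5, 8 and 2 counts) and overlapped the hemispheres. Its share of mir-23 was 17.2%, 17.0% and 5.13% in the serum libraries, or 15 of 115 counts in all (13.04%, 8.07 to 20.4%), so all 14 pools and all hemispheres lay above every serum library. The difference between brain and serum was 60.1 percentage points (exact two-sided permutation test, p = 0.1, the smallest that 3 against 3 allows, adjusted p = 0.15 over 3 pairs). For the 3p arms the serum share was 10 of 102 counts (9.80%, 5.41 to 17.1%), 48.6 points below brain (exact permutation p = 0.1).

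The mir-27 pair differed between brain and serum in the same direction. mir-27a stood at 1323, 737 and 1513 RPM in serum (10, 8 and 12 counts), at 4.26-fold the brain mean. It lay above every hemisphere, as did 20.9% of the precursors tested. This percentage, and the next one for mir-27b, carry the limit given for mir-23a. mir-27b stood at 14426, 10587 and 13997 RPM in serum, below every hemisphere, as 65.5% of the precursors tested were, and the brain mean was 2.69-fold higher. The mir-27b share was 99.2% in brain and 91.8% ± 1.63 (SD, n = 3) in serum, a difference of 7.43 points (exact permutation p = 0.1, adjusted p = 0.15), and every tissue lay above every serum library. The ratio of mir-27b to mir-27a was 11.5 ± 2.62 (SD, n = 3) in serum. miR-27b-5p received 0 of 328 arm counts in serum, which allows up to 0.915%, so its share in brain was below what this depth could show.

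**Figure D4:**
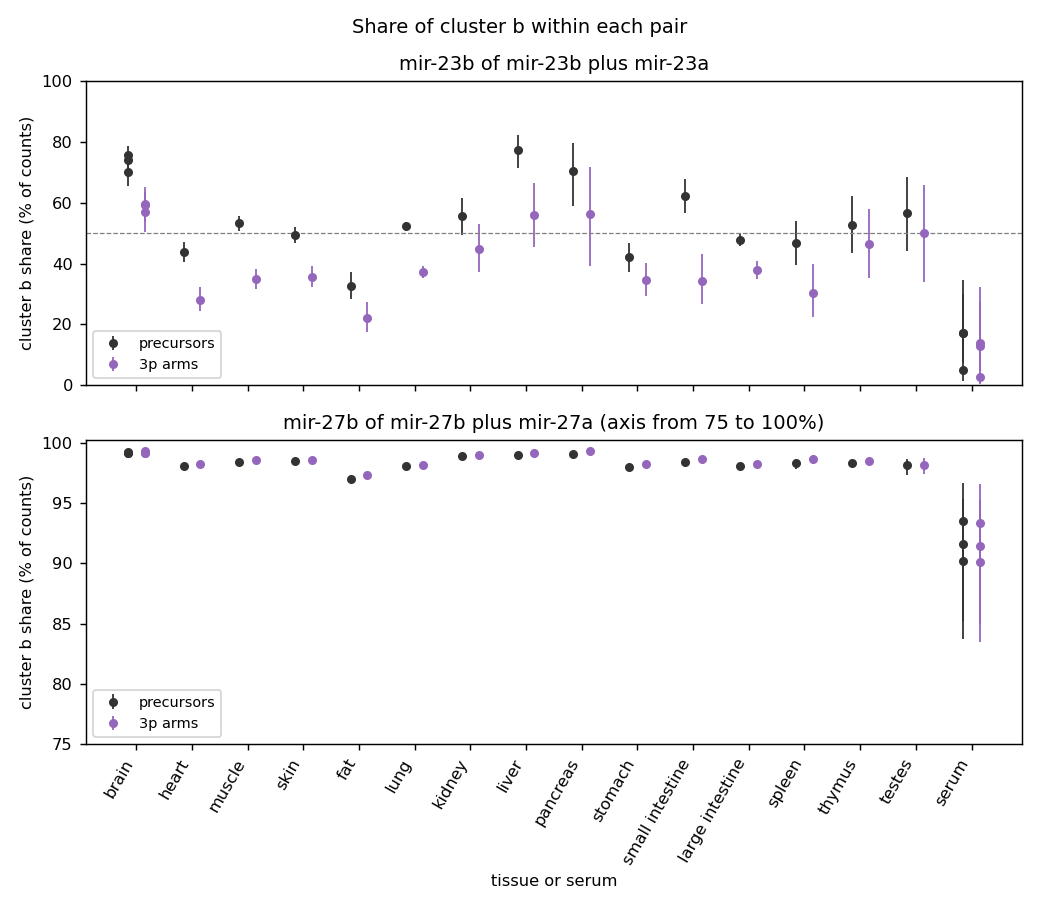
Share of cluster b in the counts of each pair, for mir-23 (upper panel, 0 to 100%, dashed line at 50%) and mir-27 (lower panel, axis from 75 to 100%), by tissue or serum, from precursors and from 3p arms. Each point is 1 library with its 95% Wilson interval for counting error; the serum libraries lie below every tissue in both panels.

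For mir-24, mir-24-2 stood at 1853, 1197 and 757 RPM (14, 13 and 6 counts) in serum. mir-24-1 stood at 1323, 737 and 1639 RPM (10, 8 and 13 counts). All lay above the hemispheres, as did 20.9% of the precursors tested, a percentage with the limit given for mir-23a. Most of these counts were the shared miR-24-3p (57 counts in serum), so the copies are not separate observations. The share of mir-24-1 was 41.7%, 38.1% and 68.4% in the serum libraries, from 19 to 24 counts each, and the difference from brain was within this spread (−7.11 points, exact permutation p = 0.9).

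Across all precursors, 5 of the 6 members were called between brain and serum, as were 63.4% of those tested. mir-27b was higher in brain (log2 fold change 1.33 ± 0.23 SE, edgeR quasi-likelihood test, adjusted p = 0.00024), where 44.7% of the 235 precursors tested were higher. mir-23a (−3.97 ± 0.29 SE, adjusted p = 1.9e-07), mir-27a (−2.16 ± 0.30 SE, adjusted p = 4.8e-05), mir-24-1 (−1.76 ± 0.33 SE, adjusted p = 0.00051) and mir-24-2 (−1.39 ± 0.40 SE, adjusted p = 0.0082) were lower in brain, where 18.7% were lower. mir-23b stood at 0.23 ± 0.46 SE (adjusted p = 0.64). The median over all precursors tested was 2.15, and the median over the members was −1.57. These figures depended on which precursors were tested. Without hemisphere 1, 2 or 3, 68 precursors passed the filter in place of 235, their median was 0.05, −0.04 and −0.05, the members stood at a median of −0.72, −0.91 and −0.74, and 26, 28 and 25 of the 68 were lower in brain. The calls of mir-23a and mir-27b held under all 12 alternatives, and that of mir-27a under all 11 in which it was tested, but with 1 library left out the log2 fold changes ranged from −4.02 to −2.87 for mir-23a, from −2.32 to −1.06 for mir-27a and from 1.20 to 2.36 for mir-27b. mir-24-2 lost its call without any 1 hemisphere or without serum library 1, and mir-24-1 without hemisphere 1 or 3. This comparison and that with the pools share the hemispheres.

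The mature arms gave the same picture where both lists could be compared, with 7 of 10 arms tested and 4 called, against 67% of all arms tested. Of the 7, miR-27b-5p, miR-24-2-5p and miR-23b-3p had 0, 4 and 10 counts in all of serum. They passed the filter on low counts through the hemispheres alone, and none of them was called. The 67% comes from the same filter, so the number of arms called is not evidence about the clusters. miR-23a-3p stood at 4092, 5269 and 6449 RPM in serum and at 191, 243 and 290.1 RPM in the hemispheres (log2 fold change of brain over serum −3.999 ± 0.37 SE, edgeR adjusted p = 6.3e-12). miR-27a-3p (−2.15 ± 0.35 SE, adjusted p = 1.5e-06) and miR-24-3p (−1.49 ± 0.35 SE, adjusted p = 0.00035) were also lower in brain, as were 14.2% of the 212 arms tested, and miR-27b-3p was higher (1.43 ± 0.38 SE, adjusted p = 0.0013), as were 52.8%. These percentages depended on which arms were tested, and the median over all 212 was 3.86. Without hemisphere 1, 2 or 3, 50 arms passed the filter, and their median was 0.04, −0.002 and −0.19. Of these 50, 17, 17 and 21 were lower in brain, and 20, 19 and 19 were higher. With 1 library left out the log2 fold changes ranged from −4.02 to −3.03 for miR-23a-3p, from −2.17 to −1.33 for miR-27a-3p and from 1.36 to 2.21 for miR-27b-3p. miR-24-3p lost its call without the filter on low counts (−0.61, adjusted p = 0.15), with 10 counts required in every library and without hemisphere 1 or 2. miR-23b-3p stood at −0.33 (adjusted p = 0.57) and miR-24-2-5p at −0.15 (adjusted p = 0.85).

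Summed markers of blood cells, and a hepatocyte marker, were higher in serum than in the hemispheres. The erythroid markers mir-451 and mir-144 (2 of 3 names listed) summed to 2210 to 4288 RPM in serum and to 4.15 to 21.0 RPM in the hemispheres. The leukocyte markers (mir-142, mir-150, mir-223, mir-146a and mir-155, 5 of 5 listed) summed to 17952 to 33922 RPM in serum and to 1021 to 1066 RPM in the hemispheres, and the hepatocyte marker mir-122 stood at 10340.4 to 142147 RPM in serum and at 0 in brain. Their part in the serum levels of the clusters was not tested.

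**Figure D5:**
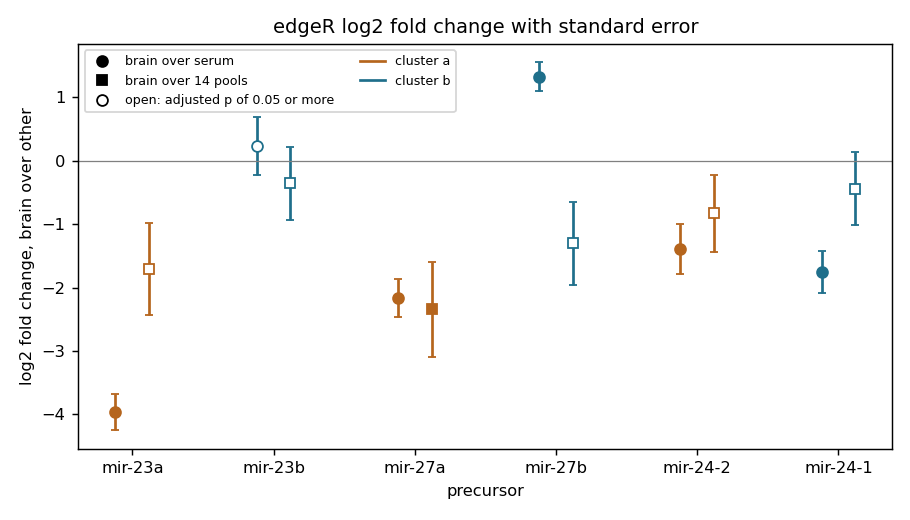
Log2 fold change of brain over serum (circles) and of brain over the 14 pools (squares) for the 6 precursors, from edgeR on all precursors tested, with bars of 1 standard error. Filled symbols passed an adjusted p of 0.05; mir-23a lies at −3.97 and mir-27b at 1.33 against serum, and mir-27a is the 1 filled square.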

How the data were processed

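Per the labels and the methods, the authors made TruSeq small RNA libraries, trimmed bases of phred scores under 20, aligned reads to Rn5 with Bowtie in Partek and quantified miRBase and RefSeq annotations. The deposited values are estimated counts for each library, since some are fractional. The 6 rows were equal in the RefSeq list in all 20 libraries. The members and marker lists were chosen with earlier results of these data known. RPM was computed against the total of each list. Rounded counts were tested with edgeR 4.0.16 in R 4.3.3 (TMM, quasi-likelihood, two-sided, Benjamini-Hochberg adjustment over all features with 10 or more counts in 3 or more libraries of the comparison, threshold 0.05) and, as an alternative, with DESeq2 1.42.0. The scripts were tested on simulated data. Ratios of the clusters were tested as log2 with 0.5 added to each count, by exact permutation. Of 8 pairs considered 7 could be formed. Replicates differed beyond sampling noise (chi-square over degrees of freedom at least 7.20), and p-values measure the spread between these libraries. Brain and serum libraries carry the same replicate numbers; same-numbered deviations correlated at 0.10, −0.11 and −0.08 over 75 precursors. Alternatives changed the normalization, filter, test, offset, pseudocount and libraries left out. Leaving out each pool other than pancreas was added after the data were seen. By rule, the 5 precursors most like each cluster were named, by Pearson r of log2(RPM + 1).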

Additional observations from a re-analysis of the deposited data

How the results depend on the processing

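The comparison of the clusters over 15 tissues kept its direction and its side of the threshold in all 136 alternatives over 7 pairs, of which the 5p pairs are set in part by the 0.5 added to counts of 0. The mir-24 precursor pair depends on how reads of the shared miR-24-3p were placed. Between brain and pools, the number of precursors called (1 of 6) became 4 with DESeq2 size factors, 5 with the DESeq2 test, 0 with library totals, 0 without any hemisphere (range 0 to 0) and 2 without the liver, pancreas, testes or thymus pool. The number of mature arms called (4 of 8) became 5 with DESeq2 size factors, 6 with the DESeq2 test, 5 without the spleen or the thymus pool, 1 with library totals, 2 without a count filter, 2 with 10 counts required in every library, 1 without any hemisphere (range 1 to 1) and 2 without the muscle or the skin pool. These numbers of mature arms include miR-27a-5p wherever it was tested, although it is at 0 in all hemispheres. It was the 1 arm called with library totals and without any 1 hemisphere, so no other arm was called there. Fewer features were called in general without a hemisphere (24 to 26 higher and 14 to 16 lower among precursors, against 71 and 55). Between brain and serum, 2 precursors and 2 arms were called with 10 counts required in every library, where few members remained to be tested, and leaving out 1 library gave 3 to 5 precursors and 3 to 4 arms.

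Values that turned their sign were all short of the threshold. With library totals brain over pools became 0.33 for mir-24-2, 0.76 for mir-23b, 0.67 for mir-24-1, 0.56 for miR-23b-3p and 0.55 for miR-24-3p, and with 10 counts in every library 0.29 for mir-23b and 0.21 for mir-24-1. Brain over serum became −0.26 for mir-23b without serum library 3 (range −0.26 to 0.71 with 1 library left out). Without a count filter it became 0.76 for miR-24-2-5p and 0.56 for miR-23b-3p, and with 1 library left out the range was −0.36 to 0.53 for miR-24-2-5p (highest without serum library 1) and −0.82 to 0.47 for miR-23b-3p (highest without serum library 2). The mir-24-1 share difference between brain and serum became 2.41 points without serum library 3 (exact permutation p = 0.3, range −12.8 to 2.41). Apart from scaling, the cause of these changes was not tested.

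The level of brain against the median over tissues moved with TMM and with DESeq2 size factors, in that order, to −1.60 and −2.26 (mir-23a), −1.95 and −2.64 (mir-27a), −0.43 and −1.14 (mir-24-2), −0.34 and −0.69 (mir-23b), −1.18 and −1.87 (mir-27b), and −0.029 and −0.73 (mir-24-1), while the median of all precursors shifted by −0.99 and −1.68. Under the replicate block, 5 precursors and 4 arms were called between brain and serum, no call of a member changed, and the share differences were 60.1, 7.43 and −7.11 points for mir-23, mir-27 and mir-24 (exact paired permutation, smallest possible p = 0.25). Serum depth limits every serum value, since the members there rest on 2 to 115 counts.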

Other observations

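Outside the clusters, the 5 precursors whose tissue pattern was most like the sum of mir-23a and mir-27a were mir-199a (r = 0.74), mir-152 (r = 0.74), mir-224 (r = 0.73), mir-214 (r = 0.66) and mir-133a (r = 0.66), over 15 tissues and 289 precursors compared. mir-199a and mir-214 are known from mesenchymal cells and mir-133a from muscle. For the sum of mir-23b and mir-27b they were mir-190a-2 (r = 0.66), mir-674 (r = 0.58), mir-133b (r = 0.58), mir-378b (r = 0.57) and mir-133a (r = 0.55), and only mir-133a was among the 5 for both clusters. Without the 2 farthest tissues these r values were, in the same order, 0.69, 0.68, 0.76, 0.63 and 0.49 for cluster a. For cluster b they were 0.59, 0.37, 0.51, 0.49 and 0.52. mir-190a-2 was highest in the library labelled pancreas, and no r is given here without that library. The median r over all precursors was 0.07 for either sum. mir-199a stood at 154 RPM in brain against a tissue median of 1755 RPM and was highest in skin. mir-224, mir-190a-2, mir-133b and mir-378b had tissue medians of 6.30, 8.17, 2.17 and 7.59 RPM, so their patterns rest on few counts. The points share libraries and scaling, and most come from the same rats.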
